A study of Homo sapiens with 2 samples.

Results

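The WD-repeat genes examined here are the 57 protein-coding genes of the human genome whose symbol is WDR, a number and at most 1 further letter, out of 19974 protein-coding genes on chromosomes 1 to 22 and X in RefSeq (GRCh38.p14). They lie on 19 chromosomes. A further protein-coding symbol that begins with WDR and a number, WDR83OS, has 2 further letters, names a different gene beside WDR83 and was set aside. Its nearest peak was 12320 bp away. Each gene was given the ChIP-seq peaks whose summit (the highest point of a peak) lay within 1 kb of either gene end, and, more widely, those inside it or up to 10 kb outside. The members were selected on their symbols, but the family was chosen by the positions of peak summits at its genes, which were already known, so the counts of genes with a peak describe it and carry no test.

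The peaks come from F36P cells, a human erythroleukaemia line, made to carry the empty retroviral vector MSCV-PIG (Vector) or that vector with a fusion of ERG and the AM tag (AM-ERG). Both populations were kept in puromycin at 1 µg/ml for 4 days, and an antibody to the tag was used for the precipitation, so ERG made by the cells' own gene is not what this antibody reads. The labels list 1 library of each kind and 1 list of 1645 peaks, 1564 of them on chromosomes 1 to 22 and X. With 1 library of each kind, no value has a replicate error and AM-ERG could not be tested against Vector. The sources used here also do not say which library was tested against which. Read depth is unknown, and expression was not measured. The pileup, or number of overlapping fragments, was recovered for each summit, and its median over the 1564 peaks was 21.

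A WD repeat is a short protein unit that often ends in tryptophan and aspartate, and several of them fold into a ring called a beta-propeller. The ring has no enzyme activity of its own in most family members and serves as a surface on which other proteins meet, so WDR genes encode subunits of many unrelated complexes, from histone methyltransferases to ribosome assembly factors, autophagy proteins and adaptors of ubiquitin ligases. ERG belongs to the ETS transcription factors, which bind DNA at a GGAA core, with CCGGAA and its longer form CCGGAAGT typical of promoters.

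Of the 57 genes, 14 had a peak inside or up to 10 kb away, or 24.6% (95% Wilson interval 15.2 to 37.1%, counting error only), where 9.58% of all protein-coding genes had one. Each had 1 peak, and the 14 peaks were distinct. At their own ends 8 genes had a summit within 1 kb, or 14.0% (7.29 to 25.3%), where 5.86% of all protein-coding genes did. The members were longer than other genes, with a median of 41.4 kb against 24.2 kb over all protein-coding genes, while the members with a peak had a median of 30.3 kb and those without 44.6 kb. The summits nearest to the 1 kb limit were those of WDR93 inside it (632 bp) and WDR74 outside it (1438 bp). With ends within 500 bp the count was 6 genes (4.86% of all protein-coding genes), and within 3 kb it was 10 (6.92%). The 8 genes with a summit at their own end were WDR1, WDR3, WDR33, WDR37, WDR45B, WDR55, WDR90 and WDR93. The peaks of WDR46, WDR74, WDR76, WDR82 and WDR83 lay at an end of another protein-coding gene and not at their own. The peak of WDR45 lay inside the gene away from both ends.

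Start sites gave a closer view, since RefSeq promoter windows with strand were at hand for 49 of the 57 members. A summit lay within 1 kb of a listed transcription start in 7 of those 49 (14.3%, Wilson interval 7.10 to 26.7%), and in 6.41% of the 15812 protein-coding genes with a listed start. These 7 were WDR1, WDR3, WDR37, WDR45, WDR55, WDR90 and WDR93. WDR45 joined them because the peak stood 123 bp upstream of an internal listed start, 21291 bp from its other listed start. WDR33 dropped out because its peak was at the far end of the gene, 109582 bp from its start. WDR45B and WDR76 had no listed start in the table.

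The promoter sequences below are those whose window holds the summit of a WDR peak, for WDR genes and for the neighbours IDI1, PEX11A and RGL2, at the peaks counted for WDR37, WDR93 and WDR46. Each is the 250 bases before the listed start, read 5′ to 3′ on the gene's strand from RefSeq on GRCh38.p14, with every CCGGAA or its reverse complement TTCCGG in capitals.
WDR1, chr4:10116800-10117049, strand -: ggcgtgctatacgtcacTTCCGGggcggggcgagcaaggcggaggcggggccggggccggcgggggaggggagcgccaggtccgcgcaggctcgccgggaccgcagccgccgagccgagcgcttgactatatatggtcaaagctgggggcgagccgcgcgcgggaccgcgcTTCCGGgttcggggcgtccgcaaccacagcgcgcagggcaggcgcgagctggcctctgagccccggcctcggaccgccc
WDR3, chr1:117929489-117929738, strand +: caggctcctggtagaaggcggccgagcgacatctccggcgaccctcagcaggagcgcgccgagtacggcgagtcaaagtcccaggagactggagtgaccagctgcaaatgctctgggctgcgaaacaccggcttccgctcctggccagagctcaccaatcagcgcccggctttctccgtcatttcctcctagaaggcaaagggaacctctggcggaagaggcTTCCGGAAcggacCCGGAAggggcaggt
WDR45, chrX:49079888-49080137, strand -: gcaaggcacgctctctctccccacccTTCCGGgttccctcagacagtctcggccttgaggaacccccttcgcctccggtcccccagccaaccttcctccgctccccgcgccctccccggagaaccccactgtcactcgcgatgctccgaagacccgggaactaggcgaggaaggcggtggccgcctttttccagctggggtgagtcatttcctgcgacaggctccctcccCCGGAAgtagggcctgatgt
WDR55, chr5:140664654-140664903, strand +: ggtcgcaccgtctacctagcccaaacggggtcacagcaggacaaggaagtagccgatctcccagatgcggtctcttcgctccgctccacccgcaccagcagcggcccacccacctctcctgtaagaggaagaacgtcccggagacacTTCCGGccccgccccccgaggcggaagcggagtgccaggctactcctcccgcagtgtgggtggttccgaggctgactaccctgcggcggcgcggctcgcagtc
WDR90, chr16:649115-649364, strand +: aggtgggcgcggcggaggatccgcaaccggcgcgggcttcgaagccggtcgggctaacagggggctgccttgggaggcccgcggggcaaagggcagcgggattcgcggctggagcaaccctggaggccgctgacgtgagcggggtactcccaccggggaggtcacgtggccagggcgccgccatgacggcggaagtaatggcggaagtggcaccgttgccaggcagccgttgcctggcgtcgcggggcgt
IDI1, chr10:1056705-1056954, strand -: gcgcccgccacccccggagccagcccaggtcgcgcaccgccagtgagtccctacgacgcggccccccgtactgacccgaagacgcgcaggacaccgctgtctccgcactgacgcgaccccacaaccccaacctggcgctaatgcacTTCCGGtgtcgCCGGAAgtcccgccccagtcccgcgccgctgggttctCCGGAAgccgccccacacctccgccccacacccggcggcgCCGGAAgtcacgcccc
PEX11A, chr15:89690755-89691004, strand -: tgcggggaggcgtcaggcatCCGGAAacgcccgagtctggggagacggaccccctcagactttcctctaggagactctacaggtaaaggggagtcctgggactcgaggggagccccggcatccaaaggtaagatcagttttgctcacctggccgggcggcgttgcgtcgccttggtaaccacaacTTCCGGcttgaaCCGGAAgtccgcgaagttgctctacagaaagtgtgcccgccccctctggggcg
RGL2, chr6:33298943-33299192, strand -: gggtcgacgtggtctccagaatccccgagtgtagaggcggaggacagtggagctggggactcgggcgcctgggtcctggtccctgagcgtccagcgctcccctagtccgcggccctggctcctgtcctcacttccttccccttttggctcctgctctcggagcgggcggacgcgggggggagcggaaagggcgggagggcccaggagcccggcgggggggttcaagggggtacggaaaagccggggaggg

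In these windows (250 bases before the start and 50 from it), positions are counted from the listed start and distances run from the middle of the motif to the summit. The PEX11A window had a motif 1.5 bp from the summit of the peak shared with WDR93. WDR1 had 3 motifs, 1 of them past the start and not printed, and the nearest was 9.5 bp from the summit. IDI1 had 4, the nearest at 19.5 bp. WDR55 had 1, at 41.5 bp. WDR45 had 2, the nearer at 98.5 bp. WDR3 had 3 just before its start, 2 of them overlapping in ttccggaa, and the nearest was 179.5 bp from a summit that stood farther upstream. WDR90 had no CCGGAA, but its window held the shorter cggaag 2 times. RGL2 had neither CCGGAA nor cggaag in the printed bases. Over these windows the nearest CCGGAA was thus within 50 bp of the summit in WDR1, WDR55, IDI1 and PEX11A farther away in WDR3 and WDR45, and lacking in WDR90 and RGL2.

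Over all protein-coding genes, 21.2% of the 22132 promoter windows held CCGGAA on either strand, against 69.8% (Wilson interval 65.0 to 74.2%) of the 374 windows that held a summit. These came from 15812 and 342 genes. A gene with several listed starts gave several windows, which the intervals treat as separate. The windows with a summit were richer in G and C, with a median of 68.7% against 62.3%. Among the 6357 windows without a summit and with 63.7 to 73.0% G and C, 26.9% had the motif. Of the 62 WDR windows 5 held a summit, against 1.69% of all windows. Those 5 held CCGGAA in 4, and the 57 WDR windows without a summit in 17 (29.8%, 19.5 to 42.7%). The longer CCGGAAGT, which contains CCGGAA, was in 3 of the 5 and in 7 of the 57, against 5.35% of all windows and 29.9% of those with a summit. The shorter CGGAAG, which overlaps both, was in 5 of the 5 and in 35.1% of the 57, against 23.7% of all windows and 72.2% of those with a summit. Where a window had both a summit and CCGGAA, the nearest motif lay a median of 46.5 bp away over 261 pairs, and 52.5% were within 50 bp. GATAAG, a form bound by GATA factors, was in 5.43% of all windows, 1.87% of those with a summit and 0 of the 5. TGTGGTT, a form bound by RUNX factors, was in 3.70% of all windows and 2.41% of those with a summit. Of the 5 it was in 1, that of WDR1.

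**Figure D1:**
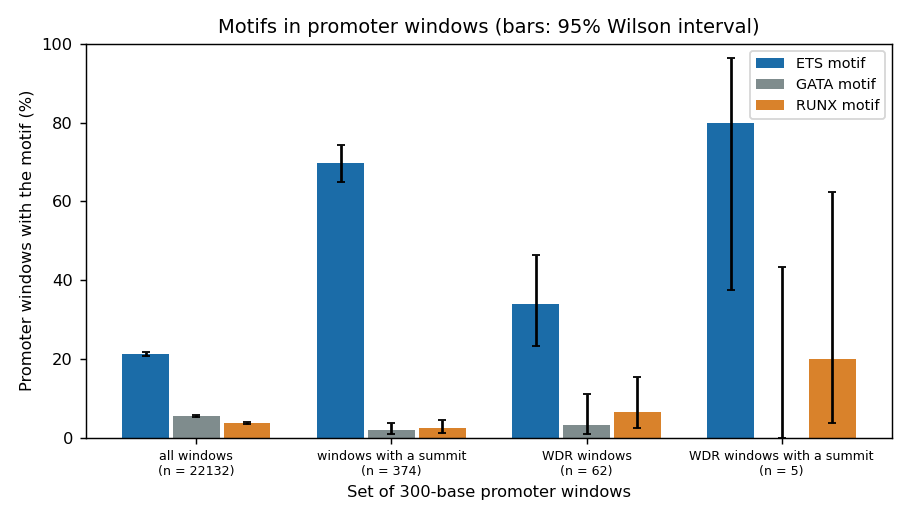
Share of promoter windows, in percent, that hold the ETS, GATA or RUNX motif of the text on either strand, in 4 sets of windows. Error bars are 95% Wilson intervals for counting error. The ETS bar rises from 21.2% of all windows to 69.8% of those with a summit, and the interval over the 5 WDR windows with a summit is wide, 37.6 to 96.4%.

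The longer motif was also found at WDR genes without a peak. CCGGAAGT was in windows without a summit at WDR25, WDR26, WDR44, WDR48, WDR74, WDR83 and WDR93, and the first 4 of these had no peak in or within 10 kb of the gene. The windows of WDR25 and WDR26, the first 2 by number, are shown for contrast, marked in the same way, and carry 1 capitalised motif each.
WDR25, chr14:100376235-100376484, strand +: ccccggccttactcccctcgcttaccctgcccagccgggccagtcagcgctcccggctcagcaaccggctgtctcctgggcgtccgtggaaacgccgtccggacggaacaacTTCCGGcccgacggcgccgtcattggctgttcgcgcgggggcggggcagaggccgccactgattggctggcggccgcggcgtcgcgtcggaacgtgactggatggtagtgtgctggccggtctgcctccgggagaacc
WDR26, chr1:224434798-224435047, strand -: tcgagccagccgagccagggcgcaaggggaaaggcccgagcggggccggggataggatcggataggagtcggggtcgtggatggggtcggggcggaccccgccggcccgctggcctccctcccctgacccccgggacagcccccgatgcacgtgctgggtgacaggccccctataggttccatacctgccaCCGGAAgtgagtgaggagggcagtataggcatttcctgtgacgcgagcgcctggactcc

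The peaks were of ordinary strength. At WDR gene ends the median fold enrichment over local background (the authors' value) was 5.47 over 8 peaks, with a range of 3.02 to 7.45, and over the 966 peaks at all protein-coding gene ends it was 4.87. Among the upper 50% of peaks by significance the median was 5.90 over only 3 WDR peaks, against 6.04. By fold it was 5.55 over only 5 WDR peaks, against 5.85, so the order turned in both. The median pileup was 17.5 against 20.0 fragments, and the median local background 3.54 against 3.45 fragments. The highest background at any of the 14 WDR peaks was 5.63 fragments, below 2 times the median of 3.52, so none lay in a region of raised background by that measure.

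**Figure D2:**
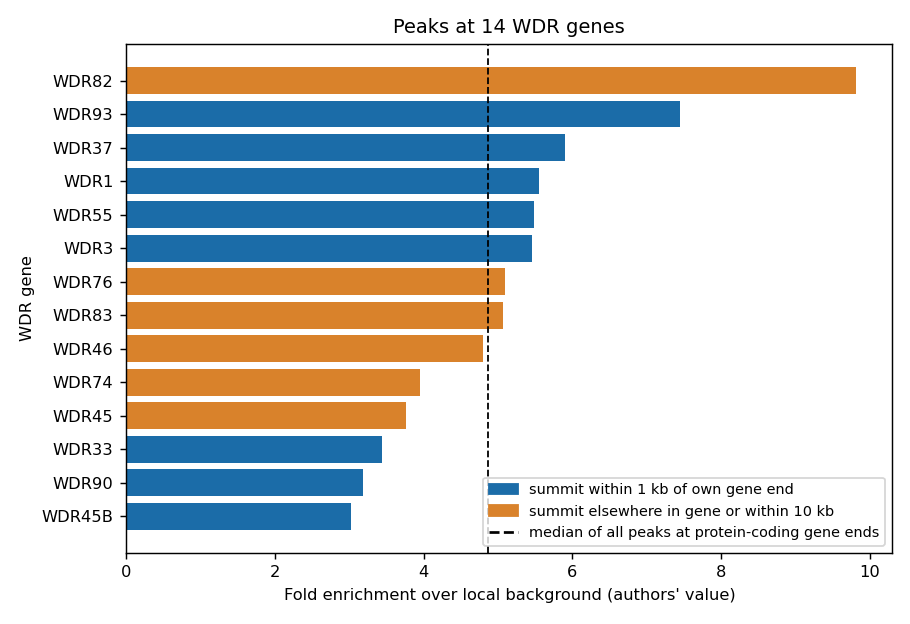
Fold enrichment over local background (authors' value, horizontal axis) of the peak at each of the 14 WDR genes with a peak, in blue where the summit is within 1 kb of the gene's own end and in orange elsewhere. WDR82 is highest at 9.81 and WDR45B lowest at 3.02, and 8 of the 14 bars pass the dashed median of 4.87 of all peaks at protein-coding gene ends.

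By role, ribosome assembly had 4 of its 9 listed genes with a peak inside or up to 10 kb away (9.58% of all protein-coding genes) and 2 of 9 with a summit at their own end (5.86%). These are small counts. WDR3 and WDR46 belong to the small subunit processome, which processes the precursor of the small ribosomal subunit, WDR55 acts in the nucleolus on ribosomal RNA, and WDR74 acts in assembly of the large subunit. WDR3, on chromosome 1, had a peak at 117929184 to 117929583 of fold 5.46 and pileup 16. Its summit was 205 bp before the start of WDR3 and 87 bp inside GDAP2, whose start faces it 118 bp away, so the peak belongs to both ends. WDR55 had the plainest case, with a summit 59 bp before its start at chromosome 5, 140664536 to 140664976, a fold of 5.48, a pileup of 15 and no other protein-coding gene end within 1 kb. A lncRNA, LOC124901088, had an end within 1 kb of it.

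The other 2 ribosome assembly genes were counted through their neighbours. The peak near WDR74 (chromosome 11, 62831380 to 62831932, fold 3.95, pileup 13) was 1438 bp outside the gene, 584 bp inside STX5, which encodes a Golgi SNARE protein, and 854 bp from an end of TEX54. The start of WDR74 was 8123 bp away from it, and the lncRNA STX5-DT had an end within 1 kb of it. The peak near WDR46 (chromosome 6, 33299070 to 33299345, fold 4.79, pileup 13) was 9890 bp outside the gene, close to the 10 kb limit. Its summit was 187 bp before a listed start of RGL2, which encodes an effector of RAS-family proteins, and 565 bp outside the far end of TAPBP, which encodes tapasin of the peptide-loading complex. The listed genes WDR12, WDR18, WDR36, WDR43 and WDR75 had no peak, and of their other partners in the processome, 2 of 16 had one, UTP18 (fold 4.42, 317 bp inside the gene, also at an end of MBTD1) and NOP14 (fold 4.36, 2883 bp outside it, at an end of SLC75A1). Among PeBoW and rixosome partners it was 1 of 8, TEX10 (fold 4.19, 188 bp from its end). For both partner lists the share over all protein-coding genes was 9.58%.

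Among genes for chromatin and transcription 3 of 6 had a peak inside or up to 10 kb away (9.58% of all protein-coding genes). Only 1 of 6 had a summit at its own end (5.86%). These counts are small, and none of the 3 peaks was at the gene's own start. WDR82, which ties the SETD1A and SETD1B histone methyltransferases and a protein phosphatase to RNA polymerase II, was counted through the strongest of the 14 peaks, at chromosome 3, 52287732 to 52288290. Its fold was 9.81, the 39th highest of the 1564, and its pileup 37 fragments. It was 9222 bp from WDR82 and 43 bp inside the RefSeq span of GLYCTK, which encodes glycerate kinase, though 2195 bp before the listed start of GLYCTK. The lncRNA genes LOC107986086 and GLYCTK-AS1 also had ends within 1 kb. WDR33, the subunit that helps the cleavage and polyadenylation factor read the AAUAAA signal of pre-mRNA, had a peak of fold 3.45 and pileup 13 at chromosome 2, 127701249 to 127701672. The summit was 562 bp inside the far end of WDR33 and 92 bp past the start of SFT2D3, a small gene within the same span. WDR76, a nuclear adaptor of the DDB1-CUL4 ligase, was 2493 bp from a peak of fold 5.09 and pileup 22 whose summit was 181 bp inside MFAP1, a spliceosome gene (chromosome 15, 43824374 to 43824677).

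No peak was listed for WDR5, the core scaffold of KMT2 methyltransferases, for its relative WDR5B or for WDR77, the partner of the arginine methyltransferase PRMT5. The nearest were 717, 2316 and 66.5 kb away. Of the other subunits of the KMT2 and SETD1 complexes, 2 of 15 had a peak inside or up to 10 kb away (9.58% of all protein-coding genes). KMT2D had 1 of fold 5.94 at its far end, 41893 bp from its start and also at an end of PRKAG1, and KMT2B had 1 of fold 3.83, 596 bp before its start and also at an end of ZBTB32. The PRMT5 methylosome had 0 of 4 (9.58% of all protein-coding genes). The cleavage and polyadenylation list had 1 of 10 (9.58% of all protein-coding genes). It was CPSF3, the endonuclease, with a fold of 4.79, 501 bp before its start, at a peak shared with ITGB1BP1.

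Among genes for nutrient sensing and autophagy 2 of 5 had a peak inside or up to 10 kb away (9.58% of all protein-coding genes). Only 1 of 5 had a summit at its own end (5.86%), and these counts are small. The 2 were the WDR genes of the WIPI family, whose proteins bind phosphoinositides on growing autophagosomes, and both peaks were weak. WDR45 (WIPI4), on the X chromosome, had a peak of fold 3.76 and pileup 16 at 49079651 to 49080210, at its internal start. WDR45B (WIPI3) had a peak of fold 3.02 and pileup 19 at chromosome 17, 82647696 to 82648410, 295 bp inside its higher-coordinate end, on the highest background of the 14 (5.63 fragments). Only 9.08% of the 1564 peaks had a lower fold. WDR24 and WDR59, subunits of the nutrient-sensing GATOR2 complex, and WDR41, which works with C9orf72, had no peak. WDR24 was among the members nearest to having one, at 30.9 kb, while the nearest peak to WDR41 was 16268 kb away. Of the partners, 0 of 6 GATOR genes had a peak inside or up to 10 kb away (9.58% of all protein-coding genes). In the list of C9orf72 and WIPI partners only 1 of 6 had one (9.58%). It was ATG2B, a lipid transfer protein gene (fold 6.11, 255 bp before its start, also at an end of GSKIP).

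WDR1 encodes the actin-interacting protein that speeds filament disassembly with cofilin. Its peak lay at chromosome 4, 10116769 to 10117337, and had a fold of 5.55 and a pileup of 28. The summit was 86 bp before the start, and no other protein-coding gene had an end within 1 kb, though the lncRNA LOC124900666 did. WDR47, WDR62 and WDR73, which act on microtubules or mitotic spindles, had none. Among cilia and dynein genes 1 of 6 had a peak (9.58% of all protein-coding genes), WDR90, a centriole wall protein gene. That peak was weak (fold 3.19, pileup 15), at chromosome 16, 649260 to 649555. Its summit was 69 bp before the listed start of WDR90, 822 bp from the far end of MCRIP2 and within 1 kb of an end of the lncRNA LOC105371038. WDR11, WDR19, WDR35, WDR38 and WDR54 had none. The partners in intraflagellar transport complex A and dynein-2 had 1 of 9 (9.58% of all protein-coding genes). It was DYNC2I1, 9404 bp from a peak of fold 4.98 at an end of ESYT2.

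Of the members in no role group, 3 of 16 had a peak inside or up to 10 kb away (9.58% of all protein-coding genes). WDR93 had the highest fold of the 8 at own ends, 7.45, and a pileup of 25 at chromosome 15, 89690498 to 89691081. Its summit was 169 bp past the listed start of WDR93 and 226 bp before that of PEX11A, a peroxisome division gene that starts 57 bp away on the other strand. WDR37, whose protein pairs with the sorting proteins PACS1 and PACS2, had a fold of 5.90 and the largest pileup of the 8, 34 fragments, at chromosome 10, 1056477 to 1056814. That summit was 313 bp inside WDR37 and 6 bp inside IDI1, the isopentenyl diphosphate isomerase gene of isoprenoid synthesis, which starts on the other strand 319 bp into WDR37. WDR83, a scaffold of MAP kinase signalling also found with the spliceosome, was 5903 bp from a peak of fold 5.06 and pileup 29 (chromosome 19, 12681576 to 12681865), 365 bp before the listed start of DHPS, the enzyme that begins hypusine formation on eIF5A.

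**Figure D3:**
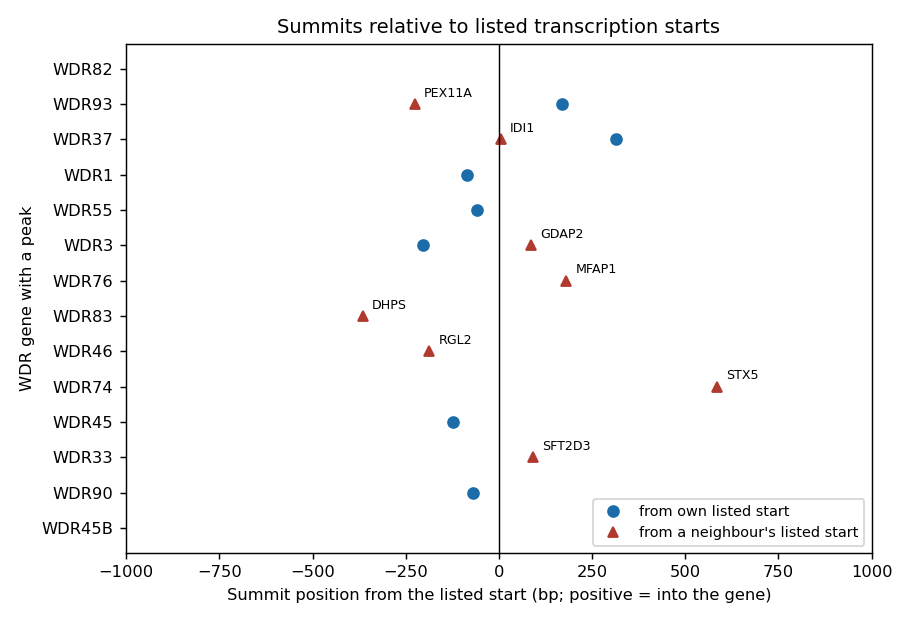
Position of each WDR peak's summit in bp from a listed transcription start, positive into the gene, for the WDR gene itself (blue circles) and for neighbouring protein-coding genes (red triangles), where within 1 kb. WDR3, WDR37 and WDR93 carry both marks. WDR46, WDR74, WDR76, WDR83 and WDR33 carry only a neighbour's, and WDR82 and WDR45B carry none.

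Some of these peaks lay at ends of more than 1 gene. Of the 8 peaks at WDR gene ends 5 were also within 1 kb of an end of another protein-coding gene, or 62.5% (Wilson interval 30.6 to 86.3%), where 22.4% of all 966 peaks at protein-coding gene ends were (19.8 to 25.1%). The share varied with the window, at 33.3% of 6 peaks with ends within 500 bp (all genes 15.7%) and 80.0% of 10 peaks within 3 kb (all genes 32.1%). With so few peaks, 1 peak moves it by many percentage points. With listed starts only, 3 of 7 (42.9%) were shared, those of WDR3 with GDAP2, WDR37 with IDI1 and WDR93 with PEX11A, where the share over all 880 peaks at starts was 16.6%. The 3 pairs start on opposite strands, and a peak there cannot be given to either gene. With WDR1, WDR45 and WDR55, and with WDR90, whose neighbour MCRIP2 ends there, the WDR start was the only listed start of a protein-coding gene within 1 kb.

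The remaining role groups, all small, had no peak inside or up to 10 kb away, where 9.58% of all protein-coding genes had one. They were the 5 genes for endosomes, trafficking and the V-ATPase (WDR7, WDR44, WDR72, WDR81 and WDR91), the 4 that work with ubiquitin ligases or deubiquitinases (WDR20, WDR26, WDR48 and WDR53) and the 2 for RNA modification (WDR4, the partner of the tRNA methyltransferase METTL1, and WDR6, that of FTSJ1). Over the 43 members without a peak the nearest summit was a median of 471 kb away, from 29.2 kb (WDR97) to 16268 kb (WDR41), and in 38 it was over 100 kb away. No member had its nearest peak between 10 and 20 kb, while WDR46 (9890 bp) and WDR82 (9222 bp) were just inside the limit of 10 kb. With a limit of 5 kb, 11 of the 57 genes had a peak in place of 14, where 8.38% of all protein-coding genes did.

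Many WD-repeat proteins act as substrate receptors of the DDB1-CUL4 ubiquitin ligase. In a small list of 6 other genes of that ligase, 4 had a peak inside or up to 10 kb away (9.58% of all protein-coding genes). At their own ends 3 of 6 had a summit (5.86%). DET1 had a fold of 8.56 with its summit 142 bp past its start. CUL4B, a cullin scaffold gene, had a fold of 7.39, 191 bp past a listed start. DDB1, the adaptor gene, had a fold of 5.71, 286 bp before its start at a peak shared with TKFC, and DDA1 a fold of 3.17, 202 bp inside the gene. CUL4A and RBX1 had none. The CTLH ligase, to which WDR26 belongs, had 0 of 10 other subunits with a peak, the deubiquitinases USP1, USP12 and USP46 had 0 of 3 and the tRNA methyltransferase partners 0 of 2. Over all 95 partner genes 12 had a peak, or 12.6%, near the 9.58% of all protein-coding genes.

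**Figure D4:**
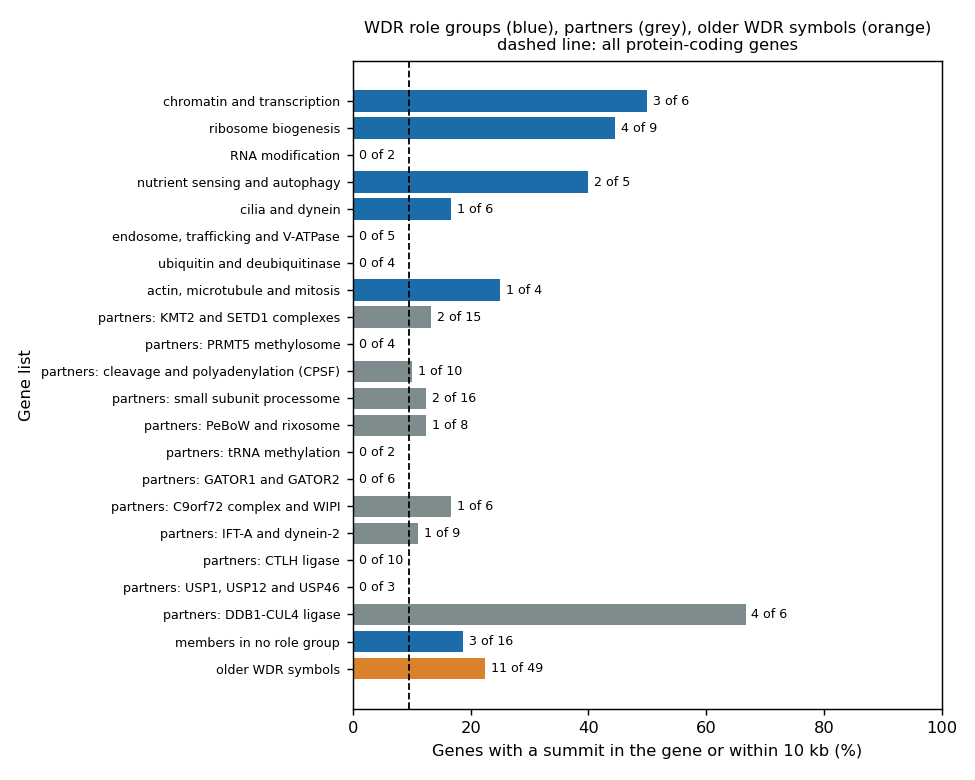
Percent of genes with a summit inside or up to 10 kb away, by list, for WDR role groups (blue), partner genes of their complexes (grey) and genes with an older WDR symbol (orange), with counts beside the bars. The dashed line is the 9.58% of all protein-coding genes, and most lists hold under 10 genes, so that 1 gene moves a bar by many percentage points.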

How the data were processed

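AM-tag ChIP-seq gave 1 library for AM-ERG and 1 for Vector. Per the submitters' processing notes, Bowtie2, MACS2 and deepTools were used with hg38, and the labels state neither versions nor settings. The deposited list is in MACS2 narrow peak layout, in which the authors give each peak a score, a fold enrichment (ratio to local background), −log10 p-values and q-values, and a summit offset. The score was not analysed. The largest q was 0.0474.

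Whole-number pileups and backgrounds were recovered by solving the fold (1 fragment added to both terms) together with the Poisson p, within 0.001 in log10 p for 1645 of 1645 peaks (300 of 300 when tested on simulated data). Gene spans and promoter windows were RefSeq's on GRCh38.p14, the assembly of hg38. The tables gave no exons, so exons and introns were not separated, and strand only for genes with a window. Motifs were exact matches on both strands.

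The family and all gene lists were chosen with earlier results of these data known. Every WDR gene with a peak is named, with each protein-coding neighbour that has an end within 1 kb of it, and partner genes are named where they have a peak. RGL2, named through its start, was added after its values were seen, as were the measure by listed starts, the motif CGGAAG, the GATA and RUNX motifs and the windows of like G and C content. Alternatives covered peak strength, background, windows and membership. Wilson intervals are at 95% and cover counting error only. The tools were SciPy 1.17.1, numpy 2.4.6, matplotlib 3.10.9 and pandas 2.3.3 under Python 3.11.15.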

Additional observations from a re-analysis of the deposited data

How the results depend on the processing

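No paired analysis was possible because only 1 library stands for a group. In the upper 50% of peaks by significance, which removes peaks by construction, 3 of 57 WDR genes had a summit at their own end. Within 10 kb 6 of 57 had one (6 peaks). Of all protein-coding genes 3.01% and 5.0% did. Partner genes numbered 7 of 95, and the median fold at WDR ends was 5.90, below the 6.04 of all gene ends. In the upper 50% by fold the numbers were 5 of 57, 9 of 57 (9 peaks), 7 of 95 and 5.55. The shares of all protein-coding genes were 3.29% and 5.49%, and the median at all gene ends was 5.85. In both settings the WDR median, over only 3 and 5 peaks, was thus below that of all gene ends, where it was above with all peaks. With the 49 older WDR symbols added to the 57, by construction, 14 genes had a summit at their own end. Within 10 kb 25 had one (25 peaks), where 5.86% and 9.58% of all protein-coding genes did. The median fold at their ends was then 5.44. The median fold was 5.46 with any base of the peak in place of the summit, 5.28 with ends within 3 kb and 5.48 for symbols of WDR and digits only. The share of WDR promoter windows with the ETS motif was 33.9% with CCGGAA, 16.1% with CCGGAAGT and 96.8% with GGAA, against 21.2, 5.35 and 95.2% of all windows. Leaving out peaks on raised background changed none of these WDR counts, and neither did adding WDR83OS, which was chosen after seeing the data. Listed starts, also chosen then, gave 7 of 49 genes, against 6.41% of all protein-coding genes with a listed start. The pileup at these 14 summits was 13 to 37 fragments, and which weaker sites the list could hold was not tested.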

Other observations

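A further 49 protein-coding genes have an older WDR symbol among their RefSeq synonyms, and 11 of them (22.4%) had a peak inside or up to 10 kb away, against 9.58% of all protein-coding genes. At their own ends 6 of the 49 had a summit within 1 kb, against 5.86% of all protein-coding genes. DNAI4 (WDR78), an axonemal dynein gene, had the highest fold, 15.3, at a peak 288 bp outside it that also lay at an end of MIER1. ATG16L1 (WDR30), which directs lipidation of LC3 on autophagosomes, had a fold of 7.17 with its summit 13 bp past its start and no other protein-coding gene end within 1 kb. DCAF12 (WDR40A), a receptor of the DDB1-CUL4 ligase, had a fold of 5.41, 365 bp past its start, and PHIP, a bromodomain protein gene, 4.65, 154 bp before its start. IFT80 (WDR56), of intraflagellar transport, had a fold of 5.24, 716 bp before its start at a peak shared with SMC4. UTP18 (WDR50) and DYNC2I1 (WDR60) are also partner genes described above. BRWD1 (WDR9), another bromodomain gene, had a fold of 5.16 200 bp before an internal listed start, where the local background was 9.86 fragments. PAK1IP1 (WDR84), a nucleolar protein gene, had a fold of 4.13, 93 bp past a listed start, at a peak shared with C6orf52. AMBRA1 and WRAP73 were 3415 and 5302 bp from peaks of fold 4.24 and 2.87.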
